A study of Manihot esculenta with 3 samples.

Results

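The genes described here were leaf genes whose transcript level in replicate 1 was at least 2 times that in both other replicate libraries. They were taken from the messenger RNA part of a methylome study of cassava (Manihot esculenta), in which fully expanded leaves of the cultivar TME 7 were sampled from plants 7.5 weeks old. All 3 libraries belonged to 1 group, with no contrasting genotype or treatment in the labels, and the labels do not say whether they came from separate plants or which leaf, the 3rd or 4th, each held. Levels were given in FPKM, fragments per kilobase of transcript scaled to the library's mapped fragments, so that genes of different length can be compared. Members were chosen by these values alone: a gene was taken when it was above 0 in all 3 libraries, had a mean of 10 to below 1000 FPKM, and stood in replicate 1 at 2 or more times the higher of replicates 2 and 3. Of 33033 genes listed, 11590 lay in this window of level, and 95 of them met the rule, which is 0.82% of the window. The replicate 1 value was itself the criterion, so its height is a description, carries no test and has no replicate check.

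Cassava is grown for its starchy storage roots, which its leaves supply with sugar. A fully expanded leaf is a mixture of photosynthetic mesophyll, epidermis with guard cells, and veins, and a library of polyadenylated RNA from the whole leaf averages over all of them. Fewer cells of a type and less RNA per cell can therefore not be told apart. In plant chromosomes genes of one family often stand next to each other as copies, which is why the order of the genes is described below along with their levels. The deposited identifiers carry a chromosome number or, for 1138 genes, the letter S in its place, but no name, and 0 of them matched the RefSeq gene table at hand. No function can therefore be given to any of the 95 genes, and leaf marker genes could not be looked up to check the labelled tissue.

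Of the 3 libraries, replicate 1 held the most genes of this kind. The same rule turned to replicate 2 gave 33 genes, 0.285% of the window, and turned to replicate 3 it gave 13 genes, 0.112%. At 1.5 times the higher of the other libraries the numbers were 466, 128 and 59 genes for replicates 1, 2 and 3, and at 3 times they were 25, 7 and 4. In the opposite direction, 201 genes of the window, 1.73%, stood in replicate 1 at 1/2 or less of the lower of the other libraries, so genes far below were more numerous than genes far above. The median log2 ratio of replicate 1 to the mean of replicates 2 and 3 was 0.0045 over the 11590 genes of the window. FPKM is scaled within each library, so this median does not show whether levels shifted as a whole. Summed FPKM was 915718, 915236 and 952243 in replicates 1, 2 and 3. The absolute depth is unknown. Steps among the lowest values gave 1 fragment a worth in replicate 3 that was 1.58 times its worth in replicate 1 and 1.53 times its worth in replicate 2, so at equal FPKM a gene of a given length rested on fewer fragments in replicate 3.

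The 95 genes covered most of the window in level. In replicate 1 they ran from 16.2 to 960 FPKM with a median of 46.5, in replicate 2 from 1.18 to 401 with a median of 14.5, and in replicate 3 from 4.31 to 463 with a median of 16.3. The window as a whole had medians of 23.6, 24.0 and 23.8 FPKM in the same libraries. Part of the low medians in replicates 2 and 3 came from the window itself, which let in 26 members whose mean of these libraries was under 10 FPKM. Without them the medians of the remaining 69 members were 64.0, 20.7 and 22.7 FPKM, against 24.2, 24.6 and 24.5 for window genes held to the same limit. In rank, the median member lay at percentile 75.7 of the window in replicate 1, at 23.5 in replicate 2 and at 30.1 in replicate 3, and among the 69 at percentiles 82.7, 41.4 and 46.4. Added up, the 95 genes took 1.28% of summed FPKM in replicate 1, against 0.453% in replicate 2 and 0.486% in replicate 3.

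**Figure D1:**
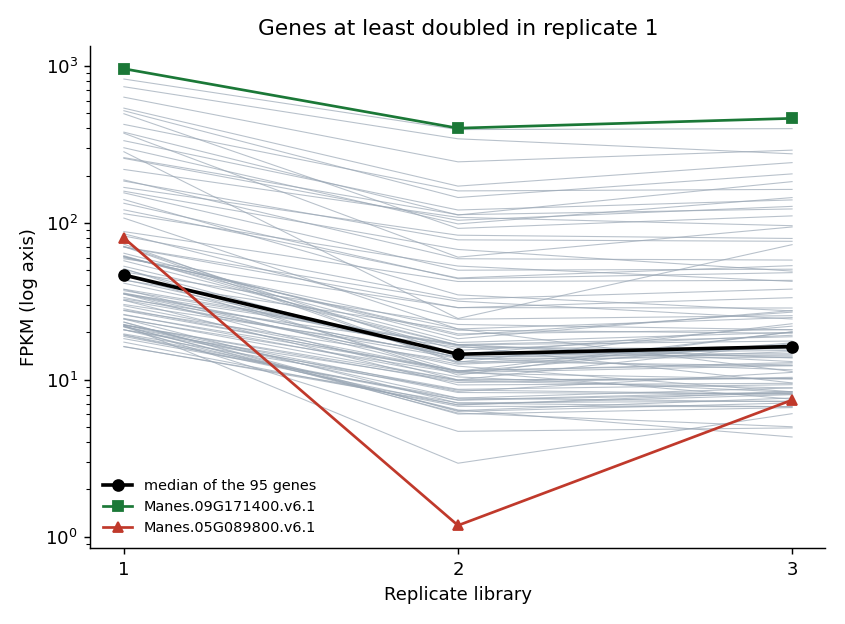
FPKM (log axis) of each of the 95 genes in the 3 replicate libraries, 1 grey line a gene, with the median of the genes in black and a pair of genes in colour. The medians are 46.5, 14.5 and 16.3 FPKM, and the drop from replicate 1 to the other libraries is the criterion by which the genes were taken.

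The share of genes that met the rule was uneven over the window, partly by construction. Because the mean of 10 FPKM included replicate 1, a gene could enter the window through that library alone. The mean of replicates 2 and 3 was under 10 FPKM in 26 of the 95 genes, 27.4%, but in only 2.49% of the window, and in 22 of the 95 both of these libraries were below 10 FPKM. Sorted by the mean of replicates 2 and 3, members made up 9% of the 289 window genes under 10 FPKM, 0.715% of those from 10 to 20, 0.409% of those from 20 to 50, 0.406% of those from 50 to 100, and 1.18% of those at 100 or more. Above the lower edge the share was therefore lowest at middle levels and higher among abundant genes, where 14 of 1185 genes met the rule.

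The highest mean among the 95 genes belonged to Manes.09G171400.v6.1, on chromosome 9 by its identifier. It stood at 960 FPKM in replicate 1, 401 in replicate 2 and 463 in replicate 3, with a mean of 608 ± 306 FPKM (SD, n = 3). Its rise over the higher of the other libraries was 2.07 times, near the threshold. The next 4 genes by mean behaved alike. A gene on chromosome 7 stood at 826, 393 and 398 FPKM in replicates 1, 2 and 3, and an S gene stood at 737, 343 and 275 FPKM. These 2 rose over the higher of replicates 2 and 3 by 2.07 and 2.15 times, also near the threshold. Larger rises occurred among abundant members too: over the 19 of mean 100 FPKM or more the rise ran from 2.02 to 4.48 times with a median of 2.18, and in 4 of them it was 3 times or more. A gene on chromosome 17 stood at 632, 245 and 291 FPKM, and a gene on chromosome 18 at 538, 171 and 242 FPKM. A single gene above the window, with a mean of 1000 FPKM or more, also met the factor of 2, out of 100 such genes above 0 in all libraries.

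Most rises were modest. The median ratio of replicate 1 to the higher of replicates 2 and 3 was 2.32, with quartiles of 2.15 and 3.06, and to the mean of replicates 2 and 3 it was 2.57. In 55 genes the rise was below 2.5 times, in 25 it was 3 times or more, in 6 it was 4 times or more, and in 1 it passed 5 times. The genes were the upper tail of a continuous spread and not a separate cluster: 17 window genes had a ratio from 2 to below 2.1, and 25 had a ratio from 1.9 to below 2. The 3 genes nearest inside the threshold had ratios of 2.010, 2.016 and 2.020. The 3 nearest outside it had ratios of 1.996, 1.9992 and 1.9995. A gene of chromosome 6 just outside had 134, 67.1 and 66.4 FPKM in replicates 1, 2 and 3, and a gene of chromosome 15 just inside had 168, 83.4 and 79.5 FPKM.

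The largest rise was that of Manes.05G089800.v6.1 on chromosome 5. It stood at 80.0 FPKM in replicate 1, 1.18 in replicate 2 and 7.42 in replicate 3, which made replicate 1 higher by 10.8 times than replicate 3 and by 68.0 times than replicate 2. All 3 libraries differed from each other here, so its value in any of them has no second library near it. The ratio of 68.0 divides by 1.18 FPKM, the lowest replicate 2 value among the 95 genes. The other 5 genes with a rise of 4 times or more had replicates 2 and 3 within 1.28 times of each other. The second largest rise, 4.48 times, was in a gene of chromosome 4 with 496, 92.1 and 111 FPKM in replicates 1, 2 and 3. A gene of chromosome 8 stood at 21.7, 4.68 and 4.93 FPKM in replicates 1, 2 and 3, and another of that chromosome at 107, 21.0 and 24.9 FPKM. The remaining 2 were on chromosome 2, at 70.6, 12.7 and 16.3 FPKM, and on chromosome 1, at 141, 34.7 and 27.4 FPKM. Large rises were thus found both near 10 and above 100 FPKM of mean level.

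**Figure D2:**
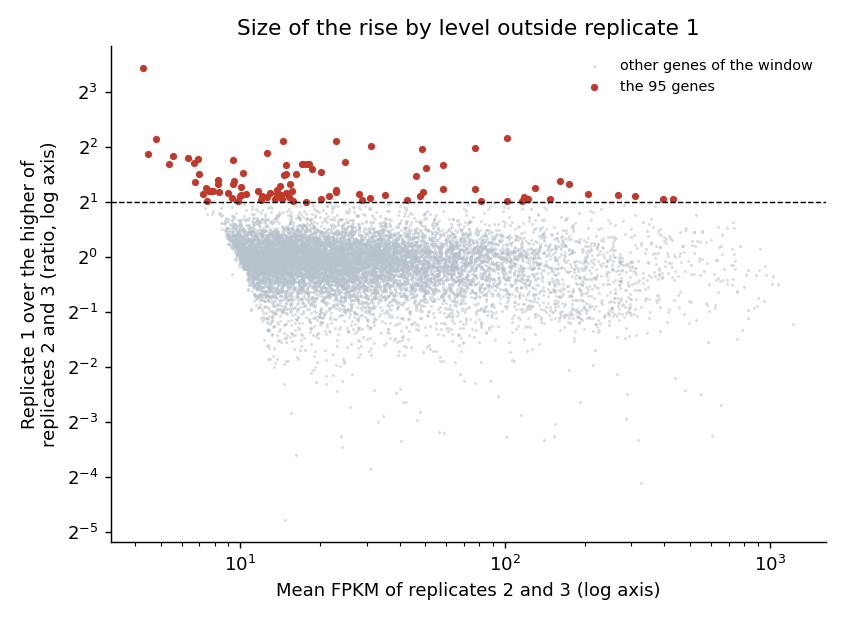
Ratio of replicate 1 to the higher of replicates 2 and 3 (log axis) against the mean FPKM of replicates 2 and 3 (log axis), with the 95 genes in red, the other genes of the window in grey and the factor of 2 as a dashed line. The red points form the upper edge of 1 continuous cloud, apart from the gene at 10.8 times, and the slanted left edge of the cloud comes from the lower limit on the mean.

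Replicates 2 and 3 gave values within 1.5 times of each other for 80 of the 95 genes, 84.2%, against 96.6% of the 11495 other genes of the window. The rule treats these 2 libraries alike and sets no limit on how far apart they may lie, apart from the threshold on the higher of them. They differed by less than 1.1 times in 36 of the 95 genes, 37.9%, against 52.1% of the others. They lay within 2 times of each other in 96.8% of the 95 genes, against 99.2% of the others. The difference was 2 times or more in 3 of the 95 and in 87 of the 11495 others. The median absolute log2 difference was 0.21 among members and 0.13 among the others. By the mean of replicates 2 and 3, it was 0.16 against 0.15 under 10 FPKM and 0.20 against 0.13 from 10 to 20. From 20 to 50 FPKM it was 0.21 against 0.13, and at 100 or more 0.26 against 0.16. Among the 6 members from 50 to 100 FPKM it was smaller than among the others, 0.05 against 0.12. The wider spread was thus found from 10 to 50 FPKM and at 100 or more, but not at every level. Under 10 FPKM, members and others alike entered the window only through replicate 1, and from 50 to 100 there were only 6 members. The rule also takes in genes that vary among all 3 libraries, so the wider spread among members is not independent of it. In the 201 genes at 1/2 or less in replicate 1, the median for replicates 2 and 3 was 0.24, against 0.13 in other window genes. The genes doubled in replicate 2 also had remaining libraries farther apart than other genes, with a median absolute log2 difference of 0.41 against 0.24. For the 13 genes doubled in replicate 3 the medians were 0.29 and 0.29.

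The difference between replicates 2 and 3 was not even in direction. Replicate 3 was the higher of the 2 in 63 of the 95 genes and replicate 2 in 32, whereas replicate 3 was higher in 49.4% of the other genes of the window. The median log2 ratio of replicate 3 to replicate 2 was 0.09 among members and -0.0032 among the others. Replicate 3 stood at 1.5 times replicate 2 or more in 12 members, 12.6%, against 1.47% of the other genes, and replicate 2 stood at 1.5 times replicate 3 or more in 3 members, 3.16%, against 1.97%. Among the genes at 1/2 or less in replicate 1 the order was turned: replicate 3 was the lower of the 2 in 141 of 201. For the genes chosen on the other libraries, replicate 3 was above replicate 1 in 20 of the 33 genes doubled in replicate 2. Replicate 2 was above replicate 1 in 11 of the 13 genes doubled in replicate 3. The shares of other window genes in these orders are not given here, so no lean can be read from these 2 counts. Genes are not independent replicates and share their libraries, so no p-value was attached to these counts.

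By level, replicate 3 was above replicate 2 in 12 of the 14 members whose mean in these 2 libraries was 100 FPKM or more, where it was above in 43.6% of the other genes. It was above in 22 of 32 members from 10 to 20 FPKM, against 51.4% of the other genes. From 20 to 50 it was above in 11 of 17, against 48.4%, and from 50 to 100 in 2 of 6, against 47.8%. Under 10 FPKM it was above in 16 of 26 members, and in 67.7% of the other genes there. The share among members was thus below that of the other genes in 2 of the 5 classes of level, those under 10 and from 50 to 100 FPKM. Genes under 10 FPKM, members and others alike, entered the window only through replicate 1, so that class is not comparable with the rest. The class from 50 to 100 FPKM held only 6 members. Examples with replicate 3 well above replicate 2 were a gene of chromosome 15 at 378, 112 and 183 FPKM in replicates 1, 2 and 3, and a gene of chromosome 13 at 373, 60.4 and 94.1 FPKM. The widest difference the other way was in a gene of chromosome 9, at 60.0, 21.1 and 11.3 FPKM in replicates 1, 2 and 3. Across the 95 genes the size of the rise went with the ratio of replicate 3 to replicate 2 only through a single gene: Pearson's r of their log2 values was 0.38 with Manes.05G089800.v6.1 and 0.09 without it, and Spearman's rho was 0.063 and 0.033. Both measures use the higher of replicates 2 and 3, so this is a description across genes of the same libraries.

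**Figure D3:**
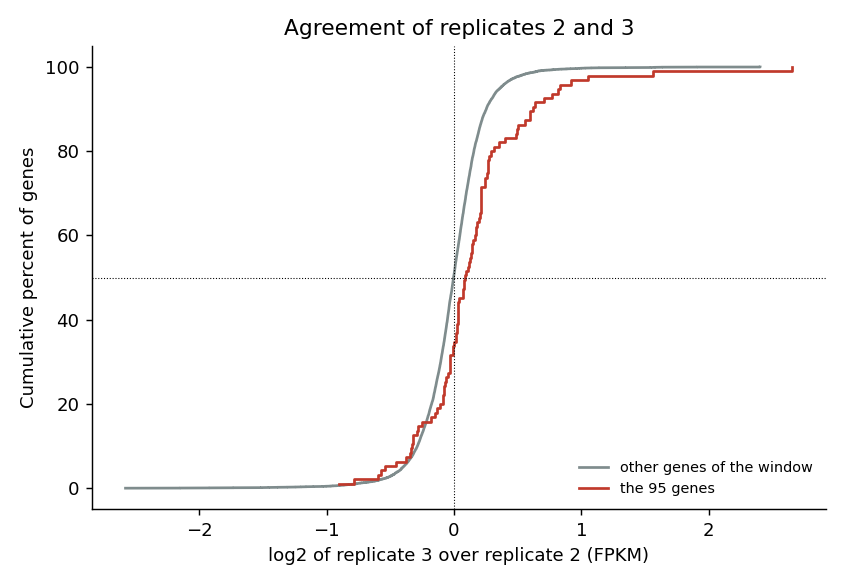
Cumulative percent of genes against the log2 ratio of replicate 3 to replicate 2, for the 95 genes (red) and the 11495 other genes of the window (grey). The red curve crosses 50% at 0.09 and the grey curve close to 0, and the red curve reaches the top more slowly on the side where replicate 3 is higher.

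The 95 genes were spread over all 18 chromosomes and the S genes. Identifiers are numbered in sequence, and their sequence served as the order of genes. The number per chromosome ran from 2 on chromosomes 11 and 12 to 9 on chromosome 15, and as a share of the window genes of the chromosome from 0.358% on chromosome 11 to 1.20% on chromosome 9. Among S genes 4 of 219 met the rule, 1.83%. With so few genes a chromosome, 1 gene more or less moves these shares strongly. When the order of each numbered chromosome was divided into 5 equal stretches, 16, 11, 21, 20 and 23 members fell into the successive stretches, or 0.705%, 0.485%, 0.926%, 0.873% and 1.01% of their window genes. On chromosome 6 all 4 members lay from place 1347 onwards among 1794 listed genes. This chromosome was picked out after the places were seen, and 4 genes do not show a concentration.

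Most members stood alone in the order, but members were next to members at a higher share than other genes were. The median distance to the next member on a chromosome was 215.5 places, with a range of 1 to 1017. Here and in the counts of neighbours the S genes were ordered like a further chromosome. Of the 95 genes, 4 had a member as the next listed gene, which is 4.21%, and they formed 2 pairs. Of the 32938 listed genes outside the 95, 0.565% had a member next to them. When only genes of the window were kept in the order, 8 members, 8.42%, had a member next to them, against 1.57% of the 11495 other window genes. The genes of a pair each count the other, so these shares rest on few independent events, and no test was run. Within 10 listed places there were 7 pairs, with 14 members. The share of other genes with a member at that distance is not given here, so this number alone does not show clustering. No run of 3 adjacent members occurred.

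**Figure D4:**
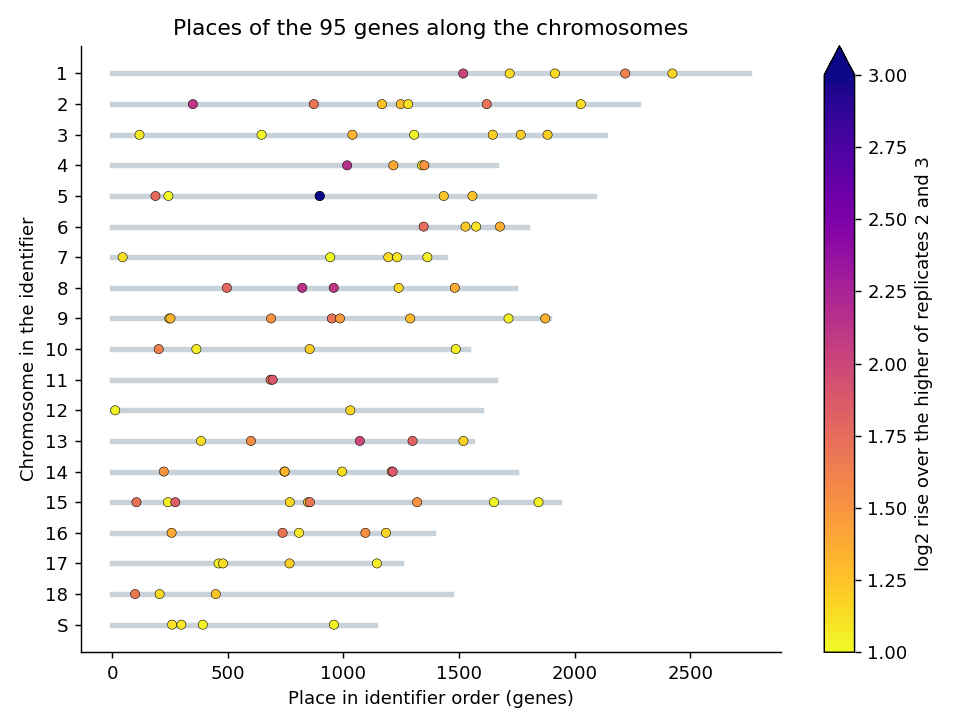
Place of each of the 95 genes in identifier order (horizontal axis, genes) on the 18 chromosomes and among the S genes, coloured by log2 rise over the higher of replicates 2 and 3, with grey bars for the genes listed. Members lie on every chromosome, at most 9 on 1 of them, and genes close in order, such as the pairs on chromosomes 5 and 14, overlap as points.

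The first adjacent pair was Manes.05G089800.v6.1 and the gene before it on chromosome 5, at places 898 and 897. The gene before it stood at 284 FPKM in replicate 1, 24.5 in replicate 2 and 72.6 in replicate 3, a rise of 3.91 times. In both genes replicate 1 was highest and replicate 2 lowest, and replicate 3 was above replicate 2 by 2.96 times in one and 6.30 times in the other, the widest gaps among the 95 genes. The genes on either side did not share this order. The gene before the pair was at 2.75, 1.88 and 2.79 FPKM in replicates 1, 2 and 3, and the gene after it was at 335, 428 and 352 FPKM, lowest in replicate 1.

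The second adjacent pair was on chromosome 14, at places 745 and 746. The first gene stood at 64.0 FPKM in replicate 1, 18.2 in replicate 2 and 27.6 in replicate 3, and the second at 51.0, 10.7 and 20.2 FPKM. Their rises were 2.32 and 2.52 times, and replicate 3 was above replicate 2 by 1.51 and 1.89 times. The gene before the pair was listed at 0 in every library, and the gene after it stood at 130, 161 and 146 FPKM, again lowest in replicate 1. Another 2 members of chromosome 14, at places 1209 and 1213, had the same order of libraries, at 301, 98.4 and 145 FPKM and at 22.2, 2.93 and 6.07 FPKM.

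In all 6 genes of these 3 pairs replicate 3 stood between the others and at least 1.47 times above replicate 2. Of the 12 members with replicate 3 at 1.5 times replicate 2 or more, 5 had another member within 10 places, against 14 of all 95 members. Chromosome 14 held 4 of the 12, and 6 of all 95. The 5 genes all belong to the 3 pairs just described, as do most of the 4 on chromosome 14. These counts therefore repeat the pairs and give no separate link between place and the order of libraries. The other 4 close pairs had replicates 2 and 3 nearer to each other. On chromosome 11 both members of the chromosome lay 9 places apart, at 188, 59.0 and 57.9 FPKM and at 50.7, 13.7 and 11.6 FPKM, and the 4 window genes between them had ratios of replicate 1 to the higher library of 0.784 to 1.31. The pairs on chromosomes 4, 9 and 15 were 10, 5 and 8 places apart, and their 6 genes rose by 2.11 to 3.22 times. The window gene between those of chromosome 15 had a ratio of 0.578, and that between those of chromosome 4 a ratio of 1.23. The close pairs were picked out after their values were seen. Whether their genes are copies that share reads was not tested.

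The next genes in order were mostly no members. The 95 genes had 190 listed neighbours, of which 69 lay in the window, 48 were at 0 in at least 1 library and 73 were above 0 with a mean under 10 FPKM. Of the 69 neighbours in the window 4 were members, 5.80%, against 0.82% of the window, and all 4 came from the 2 adjacent pairs. Over all 69 the log2 ratio of replicate 1 to the mean of replicates 2 and 3 had a median of 0.04 and quartiles of -0.22 and 0.45, against 0.0045, -0.28 and 0.24 over the window. Leaving out the 4 members, which are high in replicate 1 by the rule, gave a median of 0.0016 and quartiles of -0.24 and 0.34, against 0.00096, -0.28 and 0.23 over all window genes outside the 95. In these 65 neighbours replicate 1 was above that mean in 34, 52.3% against 50.1%. A ratio of 1.5 or more to the higher of replicates 2 and 3 was found in 4 of the 65, 6.15%, against 3.23% of those other window genes.

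None of the 95 genes held a value of 100 FPKM or more that was identical to that of another gene in the same library. Only 33 of the 11590 window genes did, and only 26 members reached 100 FPKM in replicate 1. The 0 therefore does not set the members apart. A further 26 genes would have met the rule had genes listed at 0 been kept. Of these 22 were listed at 0 in both replicate 2 and replicate 3, and 7 held such a shared value. An exact 0 in a table of this kind can be a failed estimate, so these genes were not taken.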

How the data were processed

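Polyadenylated RNA of 3 leaf libraries was sequenced as paired-end reads, per the labels' protocols. Per the file headers, the authors deposited FPKM values in 1 table, each library in its own column, and all columns were used. TopHat2 2.0.11 and Cufflinks 2.2.1 are named in the submitters' processing notes. Build, settings and rescaling of libraries were not given in the sources used here. FPKM values are not counts, so no count model was used. With 1 group, and members chosen on these values, no test was run. The members and lists were chosen with earlier results of these data known.

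Ratios were taken on FPKM with no pseudocount. The identifiers had 0 matches in the RefSeq genes of the assembly M.esculenta_v8, so the 21 gene lists stayed unfilled. By rule, the members of highest mean and of largest rise are given by identifier. Relative depth came from genes under 0.6 FPKM, whose ratios between libraries fall on ratios of the whole numbers 1 to 4 within 0.01 log2 units. The share of genes at the steps was 39.0% to 57.2%. Alternatives were other factors, FPKM + 1, median-of-ratios and upper quartile scaling, other windows of level, genes at 0, genes with shared values, other orders and leaving out replicates. The selection, the count of neighbours and the depth step were tested on simulated data. Computation used pandas 2.3.3 and numpy 2.4.6 under Python 3.11.15, and figures matplotlib 3.10.9.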

Additional observations from a re-analysis of the deposited data

How the results depend on the processing

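The number of 95 genes followed the factor chosen: 466 at 1.5, 25 at 3 and 6 at 4 times, and 405 with no window of level. Leaving out replicate 2 or 3 gave 151 to 215 genes, since fewer libraries then bound the ratio; without replicate 1 the rule cannot be applied. It was 90 to 104 with FPKM + 1 or another scaling and 69 to 135 over all settings that kept the factor, the 3 libraries and a lower limit on level. The median rise was 2.57 over the mean of replicates 2 and 3 and 2.45 to 2.67 without replicate 2 or 3. The median absolute log2 difference of replicates 2 and 3 was 0.19 with FPKM + 1, 0.21 with median-of-ratios scaling and 0.19 without the adjacent pairs, an alternative chosen after seeing the data. So were the shares of members with another member within 10 listed genes, 14.7%, and within 2 genes of the window, 12.6%. These 2 shares have no share of other genes at the same distances beside them. For Manes.05G089800.v6.1 the rise was 9.62 times with FPKM + 1 and 68.0 times without replicate 3. No paired analysis was possible because there is only 1 group. The absolute depth is unknown, and replicate 3 had the fewest fragments by the steps among low values. For a given gene length, differences of members under 10 FPKM rest on the fewest fragments and are in that respect the least certain.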
